A study of Mus musculus with 9 samples.

Results

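The comparison is of mouse embryos after later pronuclear transfer (LPN, 3 libraries) with sham-operated embryos (SPN, 3 libraries), across all genes measured. Pronuclear transfer moves the pronuclei of a fertilised egg into the cytoplasm of another cell. The series also holds 3 libraries of embryos after early transfer (EPN), which entered the same fit. Their values are given for some genes, whether or not they differed from LPN. Each group has libraries A, B and C, made from poly(A) RNA of pools of 3 embryos at 34 h post fertilization. The embryos of all groups came from B6D2F1 females of 8 to 12 weeks given PMSG and hCG, the hormones used to induce ovulation. The treatment protocol shared by all samples also describes cytoplasts made from selectively enucleated GV oocytes, and the labels do not say what that adds to each group. Of 19359 genes in the deposited table, 13782 reached 1 CPM (a gene's count of reads scaled to a common library total) in at least 3 of the 6 SPN and LPN libraries and were compared on log2(CPM + 1). The other 5577 genes did not pass this limit on low values, and 125 of the tested genes passed only through SPN libraries and 92 only through LPN libraries.

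At this stage a mouse embryo is passing from the RNA stored in the egg to the RNA of its own genome. Stored maternal messages are removed in waves while the embryo's genome is switched on, so the pool of messages depends both on decay and on transcription. Genes of RNA processing, ribosome assembly and translation are known among those switched on in the main wave of genome activation. Regulators of mRNA stability often act through the 3′ untranslated region (3′UTR), the stretch between the stop codon and the poly(A) tail.

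Library totals ran from 7611781 reads in LPN B to 15559218 in LPN A, so that 1 read equalled 0.0643 to 0.131 CPM. The share of reads outside the deposited table was 3.93 ± 0.198% in SPN and 5.12 ± 0.555% in LPN (mean ± SD, n = 3), with ranges that did not overlap (two-sided exact permutation p = 0.1, the smallest that 3 against 3 allows; adjusted p = 0.5 over 5 measures). SPN A stood apart from the other sham libraries. Its Spearman correlation was 0.895 with SPN B and with SPN C, and 0.919 to 0.923 with the EPN libraries. With LPN A, B and C it was 0.910, 0.880 and 0.890. Whether this bears on the identity of the library was not tested. On the first principal component, with 31.7% of the variance, it lay at -3.75, between SPN B and SPN C at -50.7 and -81.4 and the LPN libraries at 35.6 to 76.0. For 85 of the genes called below, SPN A lay inside the range of the LPN libraries, against 10 for SPN B and 2 for SPN C. Markers of the labelled stage were present: the 11 tested 2-cell genes summed to 1833 to 3422 CPM in SPN and 4632 to 7291 CPM in LPN, and 5 of them were called higher and 0 lower. Not every member rose, with Tcstv1 at 199, 388 and 409.5 CPM in SPN and 263, 259 and 354 CPM in LPN. The members' median deviation from each gene's mean (log2) overlapped between groups, at 0.16 in SPN A and 0.04 in LPN A. The 12 oocyte markers summed to 2989 to 3804 CPM in SPN and 1432 to 2127 CPM in LPN, with 4 called lower (Gdf9, Bmp15, Oosp1 and Nlrp5) and 1, Zp3, higher. Markers of cumulus and granulosa cells summed to 32.1 to 46.8 CPM against 27.5 to 39.9 CPM, those of sperm to 35.5 to 54.2 CPM against 42.1 to 72.5 CPM, those of trophectoderm and endoderm to 67.2 to 100.5 CPM against 26.1 to 48.4 CPM, and those of blood to 44.2 to 109.4 CPM against 14.1 to 31.5 CPM. Of the granulosa markers, Foxl2 was at 0 in all 9 libraries. Of the blood markers, Hba-a1 made up most of the sum and was called lower. What these marker levels add to the results below was not tested. In pooled whole embryos a change in every embryo and a change in the share of embryos or cells cannot be told apart, and the labels do not tie the libraries to separate matings or days, so that each p-value speaks only of library-to-library spread.

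After later transfer, E2f5, Spry4, Lef1 and Bcl7c were among the genes that were lower than in sham embryos, by -1.75 to -1.97 on the log2 scale, and Slc25a17, Castor1, Zc3h8 and Lage3 among those that were higher, by 1.48 to 1.85. Genes called lower included 17 of 100 in receptor tyrosine kinase and MAPK signalling and 10 of 53 Wnt genes, and genes called higher 37 of 314 Zfp zinc finger genes and 7 of 53 lysosome genes. In all, 1394 of 13782 tested genes (10.1%) were called, meaning a Benjamini-Hochberg adjusted p under 0.05 in the limma fit. Of these, 517 were higher than in SPN (3.75% of tested genes) and 877 were lower (6.36%). Of the 1394, 33 passed the limit on low values only through SPN libraries and 16 only through LPN libraries. Their part in these counts is a description. The median fold on the log2(CPM + 1) scale was 2.49 among genes called higher and 2.76 among genes called lower, and 1266 called genes changed by at least 2-fold. The genes called higher held 65934 CPM in SPN and 140482 CPM in LPN in sum, and the genes called lower 136965 CPM and 56226 CPM. As a description, the median log2 change of all tested genes was -0.17. When libraries were rescaled by median-of-ratios factors that median was -0.02 and the split turned, with 727 genes called higher (5.27%) and 578 lower (4.19%). The share of calls that were higher was therefore 37.1% as deposited and 55.7% after rescaling, and 1085 genes were called the same way in both (507 higher, 578 lower). Changes of gene groups are given below relative to the median of all genes.

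**Figure D1:**
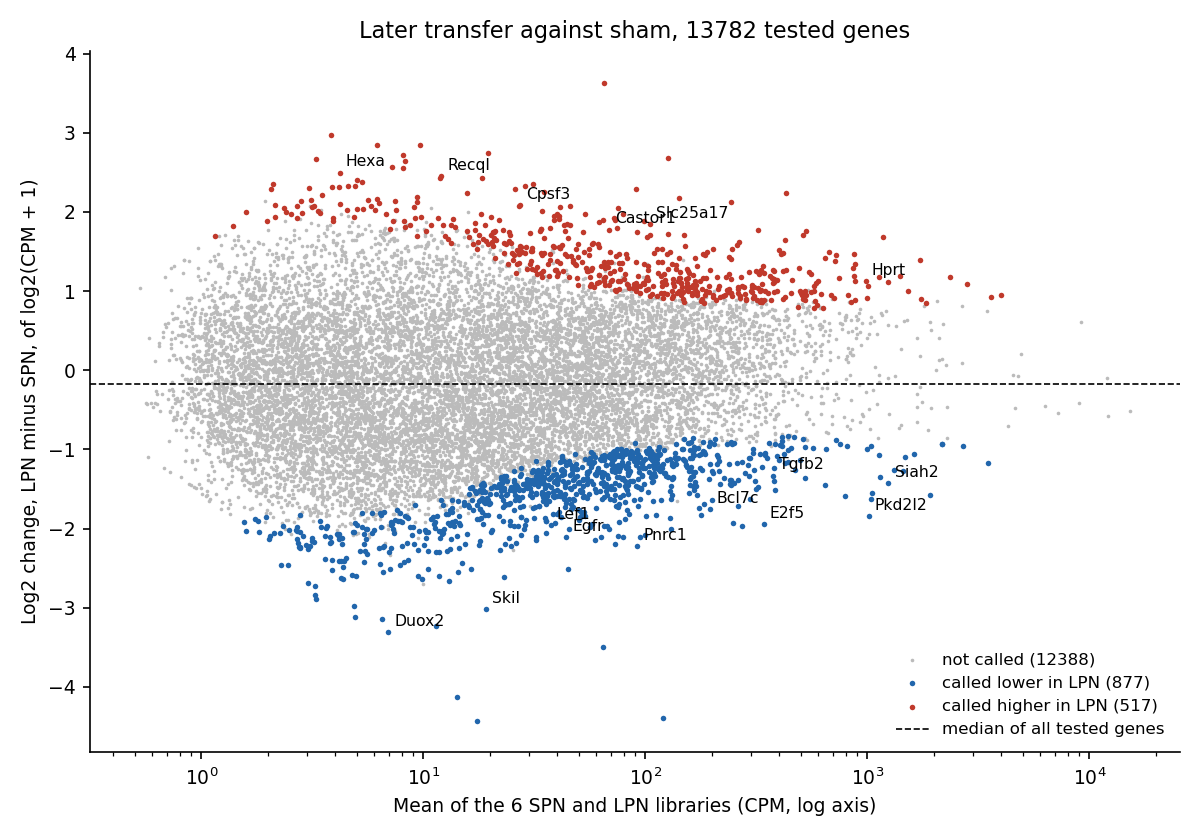
Each point is 1 of the 13782 tested genes, with its mean level in the 6 SPN and LPN libraries (CPM, log axis) and its log2 change in LPN. The 877 genes called lower (blue) and 517 called higher (red) spread over the whole range of levels, and the dashed line marks the median of all genes, -0.17.

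The number of calls rested strongly on SPN C and rose without SPN A. Without SPN C, 82 genes were called (35 higher, 47 lower), and without SPN A 2794 (1010 higher, 1784 lower). The counts were 477 without SPN B, 612 without LPN A, 303 without LPN B and 1205 without LPN C. A set of 72 genes (27 higher, 45 lower) was called in each of these 6 fits, and the single genes described first are taken from it. Of the 231 genes singled out below by rule, 34 belong to it. The 231 kept the call in 35 cases without SPN C, 74 without LPN B, 113 without SPN B, 123 without LPN A, 182 without LPN C and 224 without SPN A. Libraries of the 2 groups did not overlap for 28.8% of all tested genes (11.8% higher in LPN, 16.9% lower) and for 1295 of the 1394 called ones.

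Among genes higher in LPN and called without each of the 6 libraries, Slc25a17 encodes a carrier in the peroxisomal membrane that moves coenzyme A and related cofactors. Its level was 47.4, 45.6 and 41.2 CPM in SPN A, B and C and 173, 187 and 134 CPM in LPN A, B and C. All LPN libraries lay above all SPN libraries, and the change was 1.85 ± 0.31, adjusted p = 0.0015 (log2 ± SE). Castor1 encodes an arginine sensor that restrains mTORC1 when arginine is scarce. It stood at 35.4, 21.6 and 35.5 CPM in SPN A, B and C and 112, 90.6 and 116 CPM in LPN A, B and C, with no overlap (log2 change 1.78 ± 0.34, adjusted p = 0.0031). Zc3h8, a zinc finger protein of the complex that promotes transcription of small nuclear RNA genes, measured 43.8, 41.6 and 36.5 CPM in SPN and 119, 194 and 115 CPM in LPN (1.75 ± 0.32, adjusted p = 0.0023), and LPN B was the highest library. Lage3, a subunit of the KEOPS complex that modifies tRNA, had 56.5, 60.7 and 53.8 CPM in SPN and 163, 167 and 153 CPM in LPN (1.48 ± 0.30, adjusted p = 0.0044), so that each group was narrow and the 2 were far apart. Its EPN libraries, at 59.6, 53.3 and 59.6 CPM, sat at the SPN level, and LPN exceeded EPN by 1.47 on the log2 scale (adjusted p = 0.019). In that contrast 1.69% of all tested genes were called. Cpsf3, the endonuclease that cleaves pre-mRNA before polyadenylation, reached 13.3, 4.96 and 13 CPM in SPN and 42.5, 50.2 and 39.7 CPM in LPN (2.08 ± 0.44, adjusted p = 0.0056).

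The 250 bases before and 50 after the annotated start of Slc25a17 and Castor1 (both higher) and of Lef1 and Bcl7c (both lower, described below) are shown as examples of both directions. They are 4 of the 60 genes called in every alternative setting tried, and were picked after their values were seen. The windows come from RefSeq on GRCm38.p6, an older assembly than the GRCm39 of the submitters' processing, and run 5′ to 3′ on the strand of the gene. Capitals mark GGGCGG on either strand, the core of the GC box bound by Sp1-type factors. The first of several Lef1 windows is given.
Slc25a17 (chr15:81360716-81361015, minus strand): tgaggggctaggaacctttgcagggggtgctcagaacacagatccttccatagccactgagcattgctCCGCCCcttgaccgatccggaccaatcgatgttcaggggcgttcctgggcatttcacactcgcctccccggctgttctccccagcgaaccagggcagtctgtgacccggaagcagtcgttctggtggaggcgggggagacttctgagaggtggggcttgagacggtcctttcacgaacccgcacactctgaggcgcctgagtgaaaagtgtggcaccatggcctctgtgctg
Castor1 (chr11:4217975-4218274, plus strand): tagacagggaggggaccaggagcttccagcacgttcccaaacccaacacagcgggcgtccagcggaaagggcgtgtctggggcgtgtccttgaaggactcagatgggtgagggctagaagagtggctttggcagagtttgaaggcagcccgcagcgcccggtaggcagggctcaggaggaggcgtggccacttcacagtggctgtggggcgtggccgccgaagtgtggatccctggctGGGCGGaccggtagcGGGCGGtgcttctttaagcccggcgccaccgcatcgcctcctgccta
Lef1 (chr3:131110047-131110346, plus strand): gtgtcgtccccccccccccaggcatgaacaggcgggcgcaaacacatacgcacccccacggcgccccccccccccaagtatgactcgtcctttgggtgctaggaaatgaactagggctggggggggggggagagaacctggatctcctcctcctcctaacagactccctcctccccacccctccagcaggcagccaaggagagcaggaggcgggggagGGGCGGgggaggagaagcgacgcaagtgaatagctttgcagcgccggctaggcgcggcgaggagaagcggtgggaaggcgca
Bcl7c (chr7:127708717-127709016, minus strand): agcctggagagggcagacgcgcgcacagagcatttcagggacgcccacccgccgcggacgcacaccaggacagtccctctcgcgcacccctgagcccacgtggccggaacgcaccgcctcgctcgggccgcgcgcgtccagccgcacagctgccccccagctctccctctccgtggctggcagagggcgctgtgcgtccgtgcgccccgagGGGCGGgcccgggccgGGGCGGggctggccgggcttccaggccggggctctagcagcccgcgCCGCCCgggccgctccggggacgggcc
The letters GGGCGG occurred once in the Slc25a17 and Lef1 windows, in 2 places in that of Castor1 and in 3 in that of Bcl7c, beside at least 1 match in 57.7% of 13284 windows of tested genes. The Bcl7c window had 78.7% GC and 40 CpG pairs, and the windows of Slc25a17, Castor1 and Lef1 had 60.7%, 65.7% and 67.3% GC with 15, 21 and 18 CpG pairs. Promoter windows were found for 72.9% of the genes called higher and 76.8% of all tested genes, which is under 80%, so promoter composition was not compared between sets.

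Among genes lower in LPN, E2f5, an E2F-family transcription factor that mainly acts as a repressor with p107 and p130, measured 498, 459 and 668 CPM in SPN A, B and C and 138, 120.1 and 160.2 CPM in LPN A, B and C. Every LPN library was below every SPN library (log2 change -1.94 ± 0.27, adjusted p = 4.4e-04), and the EPN libraries lay between, at 290.1, 208 and 220.3 CPM. Pnrc1, a nuclear receptor coactivator, fell from 152 ± 51.4 to 30.8 ± 2.51 CPM (mean ± SD, n = 3; log2 change -2.22 ± 0.33, adjusted p = 4.6e-04). Its LPN libraries lay within 5 CPM of each other, at 118, 128 and 211 CPM in SPN and 28.8, 30 and 33.6 CPM in LPN. Cdo1, cysteine dioxygenase, which starts the breakdown of cysteine to taurine, measured 126, 73.6 and 163 CPM in SPN and 30.1, 18.1 and 26.1 CPM in LPN (-2.2 ± 0.36, adjusted p = 0.0012). A pair of mono-ADP-ribosyltransferases fell: Parp12 from 395 ± 156 to 101 ± 33.5 CPM (-1.92 ± 0.31, adjusted p = 0.0011) and Tiparp (also PARP7) from 1853 ± 191 to 770.0 ± 68.2 CPM (-1.26 ± 0.26, adjusted p = 0.0045). Dtx2, a Deltex ubiquitin ligase known from Notch signalling, measured 71.1, 90.2 and 131 CPM in SPN and 19.7, 15.9 and 27.8 CPM in LPN (-2.14 ± 0.36, adjusted p = 0.0015). The peroxisomal import protein Pex13 stood at 138, 103 and 154 CPM in SPN and 47.7, 32.1 and 31 CPM in LPN (-1.81 ± 0.34, adjusted p = 0.0031), so 2 proteins of the peroxisomal membrane, Pex13 and Slc25a17, moved in opposite directions. Of the 21 tested peroxisome assembly genes Pex13 was the only one called.

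**Figure D2:**
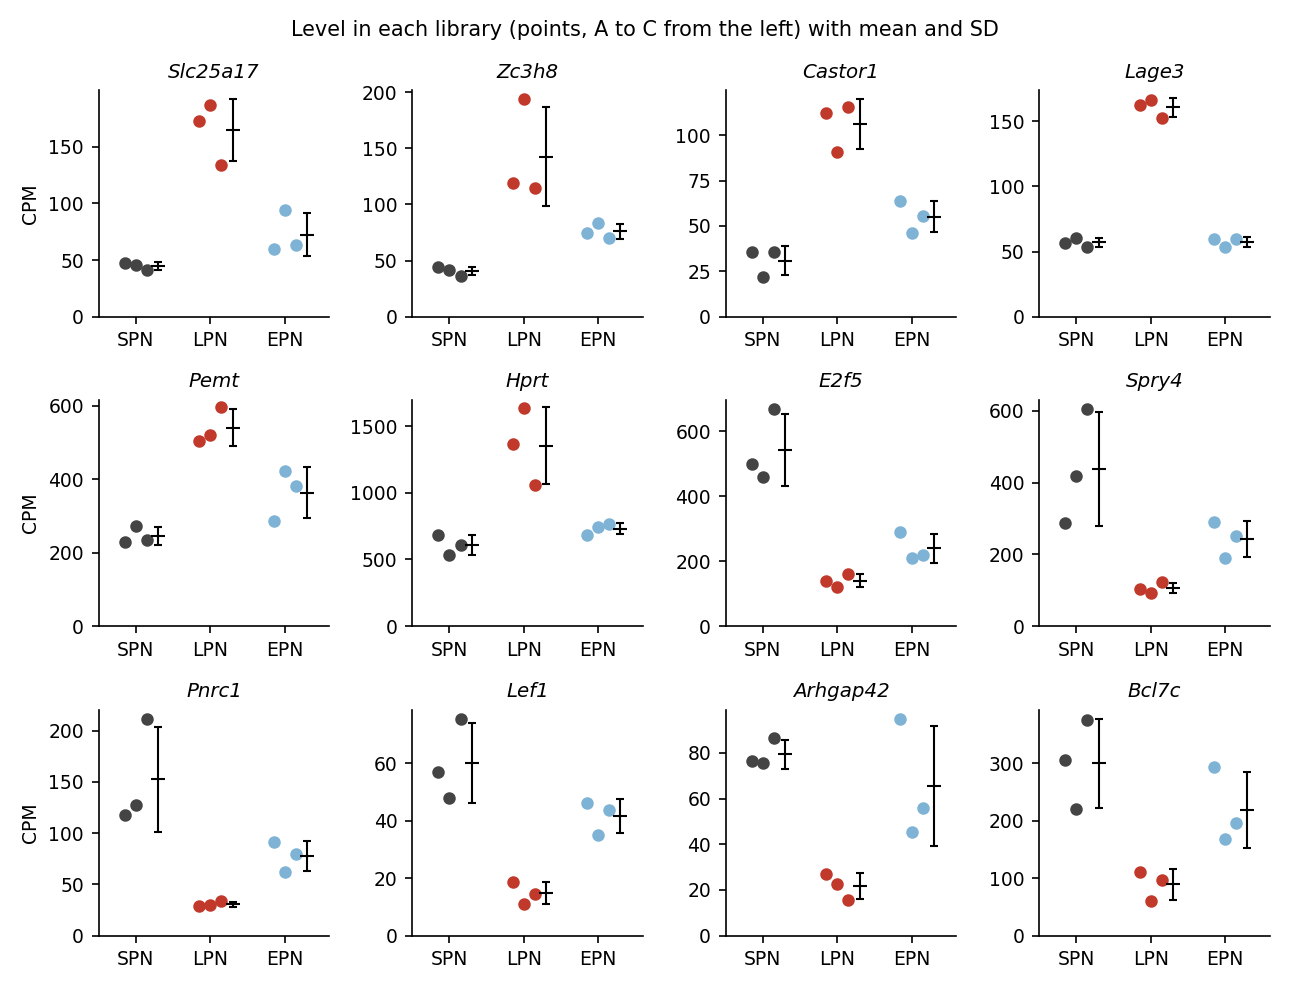
CPM of 12 genes in each library (points; A, B and C from the left), with mean ± SD beside them. LPN points lie above all SPN points in the first 6 panels and below all SPN points in the last 6; for Lage3 the EPN points lie beside SPN.

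By absolute amount, the largest losses included Spin1, a reader of methylated histones that is abundant in oocytes, with 5306, 3867 and 5390.0 CPM in SPN and 2508, 1969 and 1969.6 CPM in LPN (-1.17 ± 0.28, adjusted p = 0.01). Its call was lost with median-of-ratios scaling (log2 change -0.98, adjusted p = 0.089) and without SPN C (-1.09, adjusted p = 0.073). Pkd2l2, of the polycystin channel family, measured 1588, 1045 and 2154 CPM in SPN and 494, 349 and 444 CPM in LPN (-1.85 ± 0.30, adjusted p = 0.0011), and the ubiquitin ligase Siah2 1215, 1993 and 2269 CPM in SPN and 690.3, 553 and 746 CPM in LPN (-1.42 ± 0.28, adjusted p = 0.0035; without SPN C -1.24, adjusted p = 0.051). The largest gains included Prps1, which makes the activated ribose of nucleotide synthesis, at 2967, 1254 and 1416 CPM in SPN and 4179.8, 3750.1 and 3252 CPM in LPN (1.09 ± 0.30, adjusted p = 0.023), and Kpna2, an importin alpha that carries proteins into the nucleus, at 2546, 1162 and 931 CPM in SPN and 3148, 3093 and 3252 CPM in LPN (1.17 ± 0.31, adjusted p = 0.017). In both genes SPN A stood nearest to LPN, and for Kpna2 the EPN libraries, at 2660.1, 3106 and 3319 CPM, reached the LPN level. Their calls were lost without SPN C (Prps1 0.94, adjusted p = 0.14; Kpna2 0.88, adjusted p = 0.16). Fbxo15, an F-box protein of early embryos and stem cells, showed tight groups, with 905, 803 and 651 CPM in SPN and 1688, 1585 and 1815 CPM in LPN (1.12 ± 0.27, adjusted p = 0.011; without SPN C 0.99, adjusted p = 0.09). Obox6 and Trim43b also rose in amount, but each belongs to a family of near-identical copies, and the split of reads between copies is uncertain.

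The 3 lowest medians of the 37 lists plotted were those of signalling genes. Of 100 tested genes of receptor tyrosine kinase, Ras and MAPK signalling, 17 were called lower and 1, the ligand Fgf7, higher, with a median log2 change of -0.93, or -0.76 relative to all genes. The ligands Fgf8 and Hbegf, the receptor Egfr, the adaptor Gab2, the kinases Map2k1, Map2k3, Map2k4, Map3k5 and Mapk3 and the feedback inhibitors Spry1, Spry4, Dusp1, Dusp5, Dusp6 and Dusp7 were among the lower ones, beside Rras2 and Rasa2. The lower set thus held both activators and inhibitors of the pathway. Egfr measured 102, 40.6 and 70.4 CPM in SPN A, B and C and 19.3, 6.04 and 25.5 CPM in LPN A, B and C. The groups did not overlap, SPN A was the highest library, and the change was -2.11 ± 0.44, adjusted p = 0.0048 (without SPN C -2.07, adjusted p = 0.051). Spry4, an inhibitor of growth factor signalling that is itself induced by it, fell from 437 ± 159 to 106 ± 14.9 CPM (-1.97 ± 0.29, adjusted p = 4.8e-04) and was called without each library. Dusp5, a phosphatase that switches off ERK, stood at 16.8, 31.6 and 29.2 CPM in SPN and 2.83, 5.39 and 6.45 CPM in LPN (-2.2 ± 0.51, adjusted p = 0.0092).

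Of 53 tested Wnt genes, 10 were called lower and 0 higher (adjusted p under 0.05 in limma), with a relative median of -0.68. In the order of the pathway these were Wls, which releases Wnt ligands, the enhancer Rspo2, the receptors Fzd7, Lrp5 and Ryk, Axin2 and Tnks, a part and a regulator of the complex that destroys beta-catenin, the DNA-binding partners of beta-catenin Tcf7 and Lef1, and the co-repressor Tle3. Lef1 measured 56.8, 47.9 and 75.4 CPM in SPN A, B and C and 18.7, 11.2 and 14.5 CPM in LPN A, B and C (-1.95 ± 0.38, adjusted p = 0.0035) and was the member called without each library. Tcf7, at 9.60, 27.9 and 37.5 CPM in SPN and 4.82, 2.23 and 4.86 CPM in LPN (-2.25 ± 0.55, adjusted p = 0.012), was low in SPN A compared with the other sham libraries. Of 39 TGF-beta, BMP and activin genes, 7 were lower and 0 higher, with a relative median of -0.78: the ligand Tgfb2, the receptor Bmpr2, the signal transducer Smad5, the inhibitors Smad7, Smurf2, Ski and Skil. Tgfb2 had 662, 417 and 540.0 CPM in SPN and 245, 215 and 177 CPM in LPN (-1.33 ± 0.28, adjusted p = 0.0051), with SPN A as the highest library. Skil had 12, 44 and 46.4 CPM in SPN and 5.27, 0 and 7.37 CPM in LPN (-3.01 ± 0.64, adjusted p = 0.0055; without SPN C -2.69, adjusted p = 0.069).

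The kinase pathway of PI3K, AKT and mTOR had 11 of 74 members lower and 2 higher, Castor1 and Rps6kb2, with a relative median of -0.24. Among the lower ones were the catalytic subunit Pik3cd, the regulatory subunit Pik3r1, the AKT-activating kinase Pdpk1, the mTORC1 brake Tsc2, and Foxo1 and Foxo3, the transcription factors that AKT holds out of the nucleus. Foxo1 stood at 58.4, 120.5 and 178 CPM in SPN and 34.3, 30.7 and 39.8 CPM in LPN (-1.61 ± 0.36, adjusted p = 0.008) and Foxo3 at 46.9, 140.3 and 183 CPM in SPN and 38, 29.2 and 38.6 CPM in LPN (-1.58 ± 0.39, adjusted p = 0.012). In both, SPN A was the lowest sham library. The interleukin and interleukin receptor stem of gene symbols (Il plus a number) had 5 of 28 lower and 0 higher, among them Il6st, the shared receptor chain of the interleukin 6 family, at 16.8, 46.7 and 43.1 CPM in SPN and 10.1, 9.98 and 12.1 CPM in LPN (-1.52 ± 0.45, adjusted p = 0.032). None of the 28 was lower without SPN C, without SPN B or without LPN B, 1 was without LPN A, and 2 were with the GC and 3′UTR length trend described below removed.

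These counts moved with single libraries and settings. Receptor tyrosine kinase genes lower numbered 1 without SPN C and 29 without SPN A, and 8, 10 and 7 without SPN B, LPN A and LPN B. The figures were 1 and 17 for Wnt, 1 and 16 for TGF-beta, and 0 and 18 for PI3K and mTOR without SPN C and SPN A. Without SPN B, LPN A or LPN B, 2 to 4 Wnt genes, 1 or 2 TGF-beta genes and 1 or 2 PI3K and mTOR genes were lower. With median-of-ratios scaling 14, 8, 2 and 5 genes of these lists were lower, and the relative medians were -0.74, -0.73, -0.80 and -0.24. By library, the median deviation of the receptor tyrosine kinase list from each gene's mean was -0.02, 0.55 and 0.77 in SPN A, B and C and -0.47, -0.66 and -0.09 in LPN A, B and C. The groups of the Wnt and TGF-beta lists did not overlap either, with LPN C and SPN A as the nearest libraries in all 3 lists. The PI3K and mTOR list overlapped, with SPN A at -0.09 and LPN C at -0.00, as did the calcium, cullin-RING, deubiquitinase, chromatin remodelling, histone acetylation and lysosome lists described below.

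**Figure D3:**
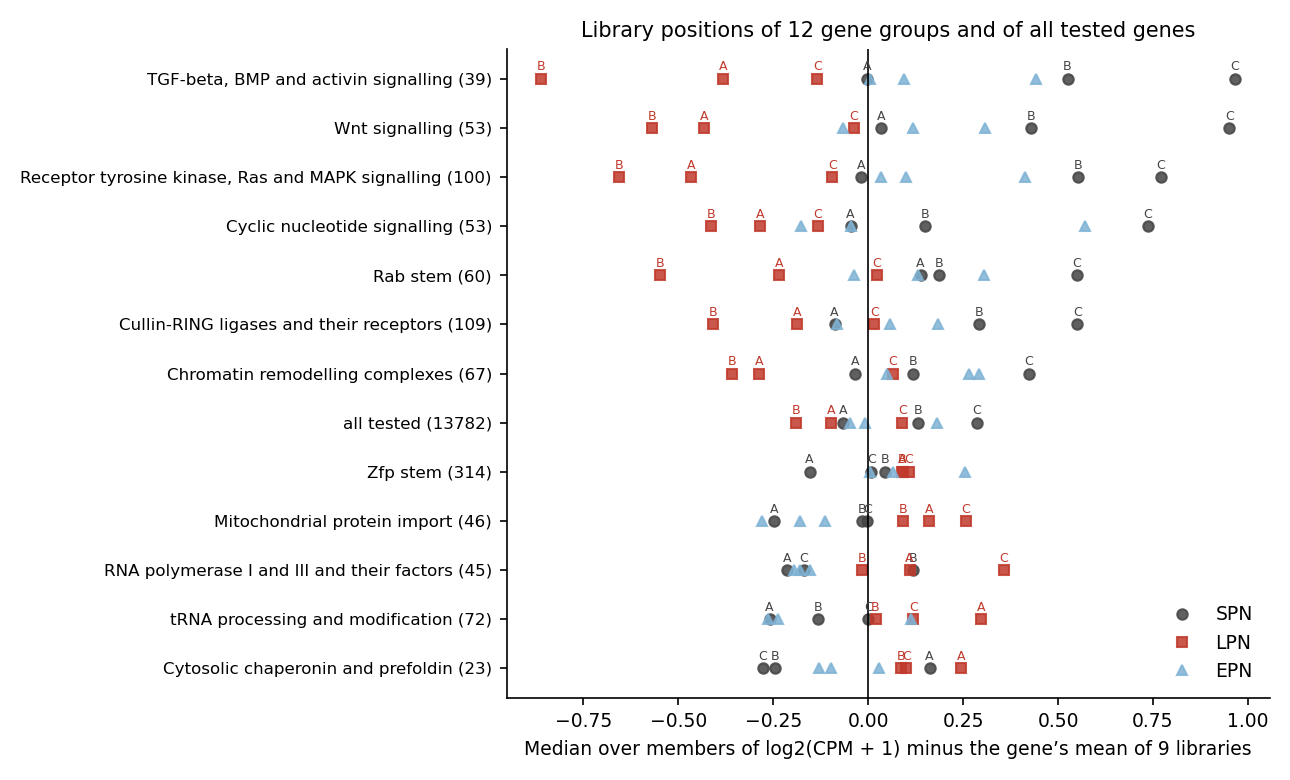
Median, over the members of 12 gene groups and over all tested genes, of log2(CPM + 1) minus the mean of the 9 libraries, for each library (letters mark SPN and LPN libraries; group sizes in parentheses). SPN and LPN do not overlap for the receptor tyrosine kinase, Wnt, TGF-beta, cyclic nucleotide, Rab, zinc finger (Zfp), mitochondrial import and tRNA groups, and SPN A is the sham library nearest to LPN in the first 5 rows and the farthest in the tRNA and import rows.

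Regulators of small GTPases included genes lower in LPN. Arhgap42, a GTPase-activating protein, measured 76.3, 75.4 and 86.7 CPM in SPN A, B and C and 27, 22.6 and 15.6 CPM in LPN A, B and C. Its libraries were tight in SPN, all LPN libraries lay lower (-1.85 ± 0.36, adjusted p = 0.0035), and it was called without each library. Tiam1, an exchange factor, stood at 46.5, 76.8 and 97.7 CPM in SPN and 21.7, 16.2 and 24.8 CPM in LPN (-1.73 ± 0.37, adjusted p = 0.0058; without SPN C -1.50, adjusted p = 0.073). The Rab stem, mostly GTPases of vesicle traffic, had 9 of 60 lower and 2 higher, with a relative median of -0.42. Rab14, of endosome and Golgi traffic, fell from 406 ± 156 to 116 ± 13.7 CPM (-1.72 ± 0.30, adjusted p = 0.0018) and was called without each library, and Rab3d, of regulated secretion, measured 47.8, 82 and 113 CPM in SPN and 23.4, 16.9 and 24.3 CPM in LPN (-1.79 ± 0.38, adjusted p = 0.0058). Rab29 and Rab19 went the other way, with Rab29 at 17.5, 8.15 and 24.8 CPM in SPN and 73, 60.7 and 38.8 CPM in LPN (1.79 ± 0.48, adjusted p = 0.021). EPN libraries of Rab29, at 13.6, 7.81 and 4.72 CPM, overlapped those of SPN, and LPN exceeded EPN by 2.65 (adjusted p = 0.0089). Without SPN C 1 Rab member was lower, and without SPN A 16.

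Medians of second messenger genes were low too. Cyclic nucleotide signalling had 5 of 53 members lower and 1 higher (relative median -0.51). The phosphodiesterase Pde10a had 3.80, 7.80 and 7.79 CPM in SPN and 0, 0 and 0 CPM in LPN, so no LPN library held a read, against a floor of 0.0855 CPM for 3 reads over the group. Like Sdc4 and S100a11 below, it passed the limit on low values only through SPN, and its values are a description. Calcium signalling had 6 of 60 lower and 1 higher, Orai1, a plasma membrane calcium channel (relative median -0.44). Mcu, the channel that lets calcium into mitochondria, stood at 81.7, 125 and 153 CPM in SPN and 41.3, 36.4 and 47.8 CPM in LPN (-1.46 ± 0.33, adjusted p = 0.0078; without SPN C -1.26, adjusted p = 0.082), beside lower Camk2g, Ppp3r1, Atp2a2, Atp2c1 and S100a11. Protein phosphatase subunits had 6 of 64 lower and 0 higher, 3 of them (Ppp2r5a, Ppp2r5c and Ppp2r5e) substrate-choosing subunits of phosphatase 2A. Extracellular matrix and integrin genes had 3 of 53 lower, near the 6.36% of all genes, although their relative median was -0.45. The 3 were the integrin Itga9 and the syndecans Sdc1 and Sdc4, and Sdc4 had 8.38, 2.48 and 7.26 CPM in SPN and 0, 0 and 0 CPM in LPN, with no read in LPN. Without SPN C none of these 4 lists had a member called lower, and without SPN A 13, 12, 17 and 7 were.

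Among ubiquitin genes, 10 of 78 deubiquitinases were lower (12.8%) and 2 higher (2.56%), with a relative median of -0.27. Of 109 cullin-RING ligase genes 9 were lower (8.26%) and 3 higher (2.75%), with a relative median of -0.23. Of all tested genes 6.36% were lower and 3.75% higher, so the cullin-RING shares were near those of all genes. Asb8, a SOCS-box substrate receptor, measured 96.3, 129 and 138 CPM in SPN A, B and C and 36.4, 23.3 and 35 CPM in LPN A, B and C (-1.91 ± 0.34, adjusted p = 0.0018), with no overlap, and was called without each library. Ddb1, the adaptor of CUL4 ligases, stood at 86.7, 128 and 191 CPM in SPN and 47.6, 44 and 55.5 CPM in LPN (-1.38 ± 0.33, adjusted p = 0.01) and the receptor Klhl8 at 205, 383 and 524 CPM in SPN and 121, 102 and 171 CPM in LPN (-1.42 ± 0.32, adjusted p = 0.0071). Higher members were the scaffold Cul3, at 568, 623 and 479 CPM in SPN and 1074, 1102 and 1043 CPM in LPN (0.95 ± 0.27, adjusted p = 0.025), the F-box protein Btrc, at 18.6, 19.8 and 19.3 CPM in SPN and 55, 55.4 and 54.1 CPM in LPN (1.47 ± 0.37, adjusted p = 0.015), and Fbxo15. The groups of Btrc were narrow, with an SD of 0.611 CPM in SPN and 0.674 CPM in LPN around means of 19.2 and 54.9 CPM. Cul1, the scaffold that Btrc works with, was called lower. Lower deubiquitinases included Usp2, Usp8, Usp15, Usp28, Usp46 and Usp53, with Usp28 at 116, 118 and 163 CPM in SPN and 44.8, 59.8 and 56.2 CPM in LPN (-1.28 ± 0.30, adjusted p = 0.01). Conjugating enzymes were even, with 4 of 64 called each way. Without SPN C the 2 former lists had 0 and 1 lower members, without SPN A 18 and 23.

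Chromatin genes were lower in a similar share. Of 67 chromatin remodelling genes, 7 were lower (10.4% against 6.36% of all genes) and 0 higher, and of 67 histone acetylation and deacetylation genes 7 were lower and 1 higher. Bcl7c, a subunit of the SWI/SNF (BAF) complex, measured 306, 220.2 and 375 CPM in SPN A, B and C and 111, 60 and 96.8 CPM in LPN A, B and C (-1.75 ± 0.31, adjusted p = 0.0018). The groups did not overlap, and the gene was called without each library. The other lower members were Arid1a, Arid1b and Arid2, the DNA-binding subunits of SWI/SNF complexes, the helicases Ep400 and Chd6, and Gatad2a of the NuRD complex. Of the acetylation genes, Mllt3, of the super elongation complex, had 304, 350.0 and 489 CPM in SPN and 151, 132 and 146 CPM in LPN (-1.38 ± 0.28, adjusted p = 0.0041). Crebbp, Sin3a, Sap30l, Yeats4 and Epc1 were lower too. The relative medians of the 2 lists, -0.13 and -0.15, were close to the median of all genes. With median-of-ratios scaling 3 and 6 members were lower and 0 and 4 higher, and without SPN C 1 and 0 were lower. With the GC and 3′UTR length trend described below removed, 4 of 66 acetylation genes were higher and 5 lower, a nearly even split. Of the 67 remodelling genes 0 were then higher and 2 lower. Without SPN A 12 and 15 members were lower.

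**Figure D4:**
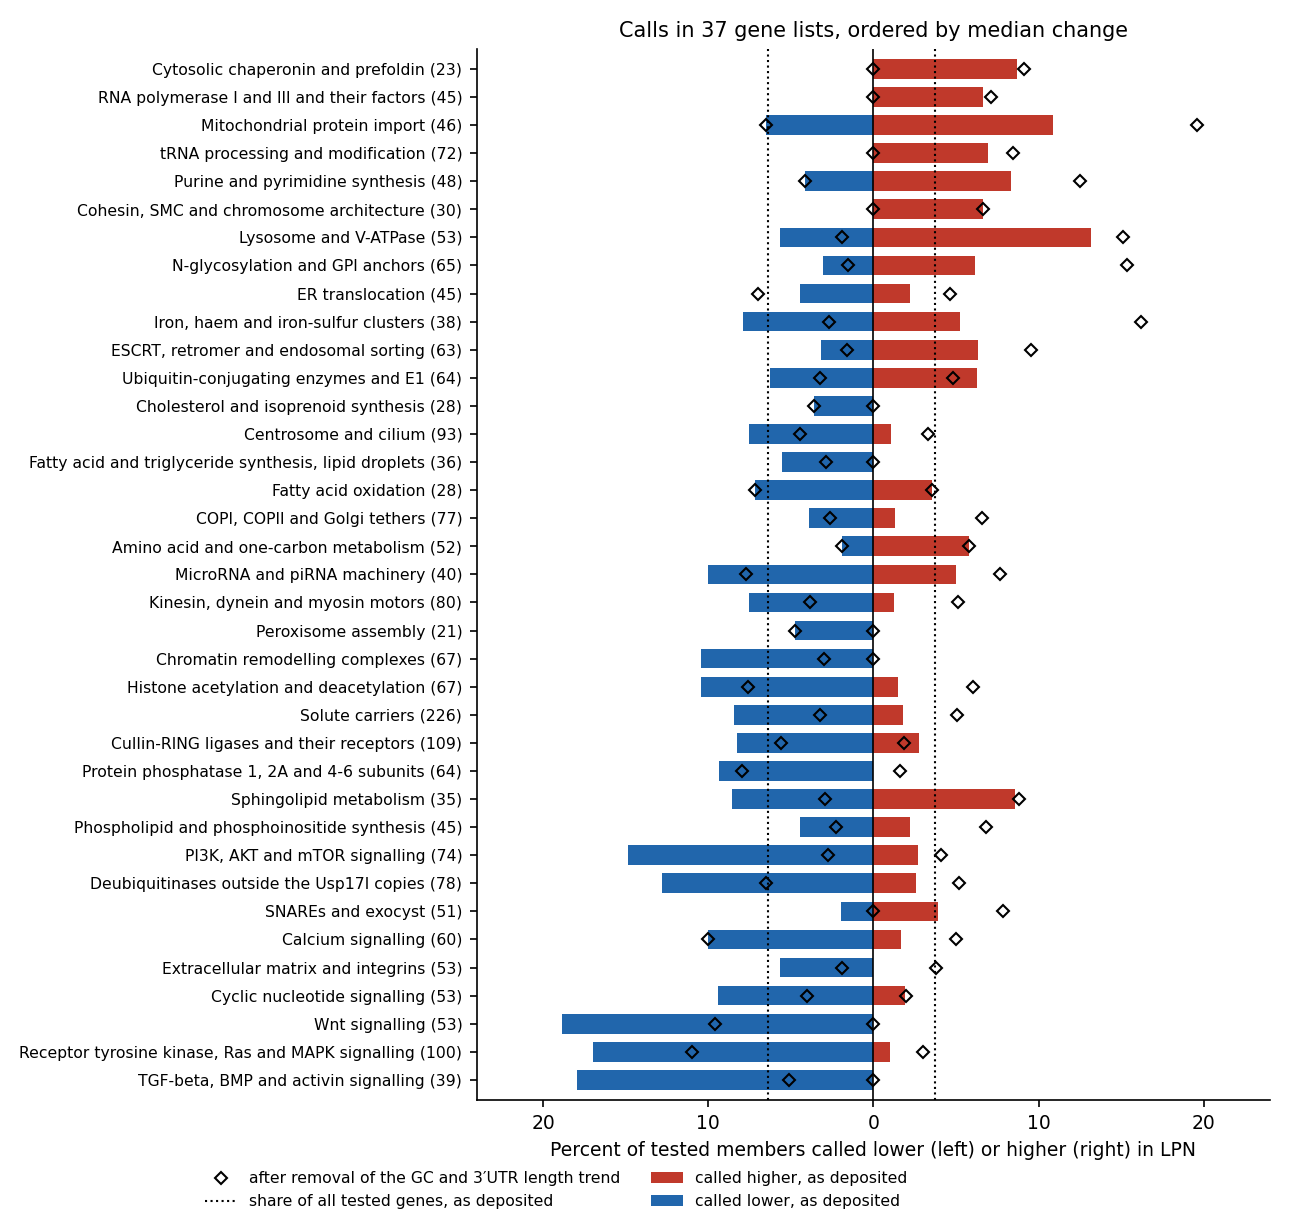
Percent of the tested members of 37 gene lists (sizes in parentheses) called lower (left, blue) or higher (right, red) in LPN, ordered by median change, with dotted lines at the shares of all tested genes (6.36% and 3.75%). Diamonds give the shares after the trend with GC content and 3′UTR length was taken out of each library, over members with both values. By them the Wnt and receptor tyrosine kinase lists have about 10% of members lower, beside 4.17% of all genes in that fit, to which the dotted lines do not apply.

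The 4 highest medians of the lists plotted were those of chaperonin, RNA polymerase I and III, mitochondrial import and tRNA genes. The list of 23 cytosolic chaperonin and prefoldin genes had a relative median of 0.64, with 2 called higher and 0 lower. These were the chaperonin subunit Tcp1 and Tbce, a tubulin folding cofactor that is in the list but is no subunit of either complex. The 45 genes of RNA polymerases I and III and their factors had 0.53, with 3 higher and 0 lower. These were Polr1e, a subunit of polymerase I, at 286, 173 and 204 CPM in SPN and 444, 470.5 and 394 CPM in LPN (1.0 ± 0.28, adjusted p = 0.023), Taf1a, of the polymerase I promoter factor SL1, and Snapc1, of the complex that starts small nuclear RNA genes. The 72 tRNA processing and modification genes had 0.49, with 5 higher and 0 lower. They were Lage3, the RNase P subunits Rpp14 and Rpp38, the tRNA guanine methyltransferase Mettl1 and the tRNA adenine methyltransferase subunit Trmt6. Rpp38 measured 15.8, 67.2 and 26.3 CPM in SPN A, B and C and 87, 158 and 92.4 CPM in LPN A, B and C (1.8 ± 0.41, adjusted p = 0.008), with SPN B above the other sham libraries. Mettl1 stood at 9.03, 11.9 and 7.52 CPM in SPN and 27.1, 23.5 and 48 CPM in LPN (1.65 ± 0.48, adjusted p = 0.029). Shares of 8.7%, 6.67% and 6.94% called higher compare with 3.75% of all genes, on few genes each. The share of all genes depended on level, with 0.883% called higher under 5 CPM and 11.4% from 100 to 1000 CPM. No gene list was matched for level.

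Mitochondrial protein import (46 genes, relative median 0.51) had 5 members higher and 3 lower. Higher were Tomm20, the receptor on the outer membrane, Timm17a and Timm22, channel subunits of the 2 inner membrane translocases, and the import motor co-chaperones Dnajc15 and Grpel1. Tomm20 measured 342, 400.4 and 275 CPM in SPN A, B and C and 707, 666 and 611 CPM in LPN A, B and C (0.98 ± 0.27, adjusted p = 0.022). Lower were the small chaperone Timm8b, the folding factor Hspe1 and the peptidase Immp1l, with Immp1l at 414, 536 and 647 CPM in SPN and 229, 278 and 170.3 CPM in LPN (-1.24 ± 0.28, adjusted p = 0.0074). Purine and pyrimidine synthesis (48 genes, 0.40) had 4 higher, Prps1, Prps1l3, Hprt and Ctps2, and 2 lower, Ak4 and Ampd3. Hprt, the purine salvage enzyme, measured 685, 535 and 611 CPM in SPN and 1364, 1634 and 1058 CPM in LPN (1.13 ± 0.26, adjusted p = 0.0092; without SPN C 1.14, adjusted p = 0.059), and Ampd3, which deaminates AMP, 21.5, 35.5 and 33.2 CPM in SPN and 6.17, 8.41 and 6.45 CPM in LPN (-1.94 ± 0.47, adjusted p = 0.011). Cohesin and related genes (30, 0.35) had 2 higher, Smc1a and Nsmce2, with Smc1a at 57.5, 51.5 and 48.3 CPM in SPN and 112, 114 and 113 CPM in LPN (1.1 ± 0.30, adjusted p = 0.024). By library, the tRNA list lay at -0.26, -0.13 and -0.00 in SPN A, B and C and at 0.30, 0.02 and 0.12 in LPN A, B and C (median deviation, log2), so that SPN A was here the library farthest from LPN. The import list did not overlap either, and the polymerase and chaperonin lists did. Without SPN C 1 tRNA gene and no gene of the other 5 lists was called higher. Without SPN A the chaperonin, polymerase, tRNA, import, nucleotide and cohesin lists had 5, 6, 8, 9, 8 and 6 genes higher. In the same order, they then had 0, 4, 1, 4, 3 and 6 genes lower.

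Genes of the lysosome and its proton pump had 7 of 53 members higher and 3 lower (13.2% higher, relative median 0.29). The proteases Ctsc and Ctsl, the hexosaminidase subunit Hexa, the membrane protein Lamp2 and the pump genes Atp6v0e and Atp6ap2 were among the higher ones, and the sulfatase Arsb, Laptm4b and Tfe3 were lower. Ctsc measured 269, 144 and 68.7 CPM in SPN A, B and C and 401, 495 and 547 CPM in LPN A, B and C (1.77 ± 0.33, adjusted p = 0.0031; without SPN C 1.27, adjusted p = 0.051). Its EPN libraries, at 415, 515 and 458 CPM, lay at the LPN level. Hexa stood at 1.36, 0.0886 and 0.262 CPM in SPN and 5.98, 5.39 and 12.1 CPM in LPN. Of its SPN libraries only SPN A reached 1 CPM, so Hexa met the limit on low values through LPN and its values are a description. In sphingolipid metabolism the synthetic enzymes Degs1, Ugcg and B4galt6 were the 3 lower ones of 35 tested. Ugcg, which makes glucosylceramide, measured 94.5, 192 and 243 CPM in SPN and 69.3, 65.8 and 89.5 CPM in LPN (-1.13 ± 0.32, adjusted p = 0.028). N-glycosylation and GPI anchor genes had 4 of 65 higher and 2 lower. The 2 catalytic subunits of oligosaccharyltransferase went opposite ways, Stt3a at 111, 80.7 and 26.6 CPM in SPN and 151, 221 and 156 CPM in LPN (1.46 ± 0.36, adjusted p = 0.013) and Stt3b at 222, 454 and 571 CPM in SPN and 191, 172 and 220.3 CPM in LPN (-0.99 ± 0.30, adjusted p = 0.035). Without SPN C none of these genes was called.

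Zinc finger genes of the symbol stem Zfp, many of them DNA-binding repressors, were called higher in a larger share than all genes. Of 314 tested ones 37 were called higher (11.8% against 3.75% of all genes) and 10 lower, with a relative median of 0.25, and 38 and 5 after median-of-ratios scaling. The 37 include Zfp146 and Zfp442, which had no read in SPN. Both passed the limit on low values only through LPN, so their part in the count is a description. Zfp808 measured 23.6, 2.84 and 7.52 CPM in SPN and 39.3, 52.8 and 46 CPM in LPN (2.33 ± 0.51, adjusted p = 0.0061) and the pseudogene Zfp353-ps 78.3, 39.2 and 36.7 CPM in SPN and 147, 287 and 258 CPM in LPN (2.17 ± 0.33, adjusted p = 4.8e-04). Without SPN C 3 were higher and without SPN A 58, with 13, 14 and 10 without SPN B, LPN A and LPN B. Lower ones in these settings numbered 0 and 24, and 1, 2 and 1. Without LPN C 26 were higher and 10 lower. Many Zfp genes come in clusters of near-identical copies, so reads may be split between neighbours. The median deviation of the family was -0.15, 0.05 and 0.01 in SPN A, B and C and 0.09, 0.09 and 0.11 in LPN. Translation initiation factors by symbol (Eif stem) had 12 of 64 higher and 1 lower, with a relative median of 0.58. Of the 12, 6 were copies of Eif1ad, whose reads cannot be told apart with certainty, and the others were Eif2s1, Eif3a, Eif3e, Eif3k, Eif3m and Eif5a2. Without SPN C and without LPN B 2 members were higher and 0 lower, and without SPN A 20 were higher and 5 lower. The member lower with all libraries in the fit was Eif4e1b, an oocyte form of the cap-binding protein. It stood at 60.8, 37.7 and 121 CPM in SPN and 26.9, 11.6 and 20.6 CPM in LPN (-1.75 ± 0.42, adjusted p = 0.01).

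Large changes were also found outside these lists, in each band of level. Between 5 and 20 CPM, the DNA helicase Recql measured 5.23, 4.52 and 0.525 CPM in SPN and 31.5, 15.5 and 15 CPM in LPN (2.45 ± 0.61, adjusted p = 0.013, and without SPN C 1.80, adjusted p = 0.12). Apon, an apolipoprotein gene, had 0.0716, 0.0886 and 1.14 CPM in SPN and 2.19, 21.8 and 11.8 CPM in LPN. Its call was lost without LPN B. Lower in that band was Duox2, a hydrogen peroxide-producing oxidase, at 5.30, 19 and 16.1 CPM in SPN and 0.0643, 0 and 1.09 CPM in LPN. Its call was lost without SPN C. Apon met the limit on low values through LPN and Duox2 through SPN, so the values of both are a description. Between 20 and 100 CPM, Bcar3, an adaptor of integrin and growth factor signalling, stood at 25.9, 36.2 and 48.6 CPM in SPN and 12.1, 4.47 and 5.19 CPM in LPN (-2.27 ± 0.47, adjusted p = 0.0046; without SPN C -2.05, adjusted p = 0.059). Above 100 CPM, Renbp, which converts N-acetylmannosamine and N-acetylglucosamine, measured 116, 39.2 and 37.7 CPM in SPN and 211, 157 and 196 CPM in LPN (1.73 ± 0.36, adjusted p = 0.0046; without SPN C 1.45, adjusted p = 0.061), with SPN A nearest to LPN. In the same band Dpysl3, a cytoskeleton-binding protein known from axon growth, had 180.1, 197 and 229 CPM in SPN and 62.5, 35.6 and 72.1 CPM in LPN (-1.87 ± 0.35, adjusted p = 0.0031) and the ubiquitin ligase Rnf220 138, 137 and 190.3 CPM in SPN and 46.7, 24.4 and 64.3 CPM in LPN (-1.85 ± 0.36, adjusted p = 0.0035), both called without each library. By level, 0.883% of genes under 5 CPM were called higher and 1.67% lower, 4.78% and 11.1% of genes of 20 to 100 CPM, and 11.4% and 10.4% of genes of 100 to 1000 CPM. By gene type, 450 of 12363 protein-coding genes were higher and 847 lower, 17 and 17 of 667 lncRNA genes, and 35 and 4 of 518 pseudogenes. Pseudogene reads may belong to their parent genes, and that was not tested.

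The remaining lists had fewer calls or calls on both sides. Solute carriers had 19 of 226 lower and 4 higher, centrosome and cilium genes 7 of 93 lower and 1 higher, and motor proteins 6 of 80 lower and 1 higher, beside 6.36% lower and 3.75% higher of all genes. Without SPN C 1 solute carrier and no centrosome or motor gene was lower, and without SPN A 29, 9 and 8. With the GC and 3′UTR length trend described below removed, the split of solute carriers turned to 11 higher and 7 lower of 216. Cholesterol synthesis had 1 of 28 lower, Insig1, fatty acid synthesis 2 of 36 lower, fatty acid oxidation 1 of 28 higher and 2 lower, and ER translocation 1 of 45 higher and 2 lower. Of 40 genes of the microRNA and piRNA machinery 2 were higher and 4 lower, with members of the piRNA pathway on both sides. The helicase Mov10l1 stood at 19.4, 11 and 14.4 CPM in SPN and 55.1, 54.5 and 48.9 CPM in LPN (1.79 ± 0.40, adjusted p = 0.0072). Piwil1, counted among the 4 lower ones, stood at 7.23, 3.37 and 7.09 CPM in SPN and 0.836, 0 and 0.754 CPM in LPN. Piwil1 passed the limit on low values only through SPN, so its values are a description. Phospholipid synthesis had 1 of 45 higher and 2 lower. The higher one was Pemt, which methylates phosphatidylethanolamine to phosphatidylcholine, at 228, 272 and 234 CPM in SPN A, B and C and 503, 519 and 597 CPM in LPN A, B and C (1.14 ± 0.26, adjusted p = 0.0093), with no overlap. Mtmr2, a phosphatase of endosomal phosphoinositides, was lower at 67.8, 87.8 and 97.1 CPM in SPN and 27.6, 20.4 and 20.5 CPM in LPN (-1.84 ± 0.37, adjusted p = 0.0044).

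Some genes had reads in only 1 of the 2 groups. There were 1387 genes with no read in all 3 LPN libraries, of which 30 were tested, and 1156 with no read in SPN, of which 15 were tested. These could pass the limit on low values only through the group that held reads, so their values are a description. S100a11, a calcium-binding protein, measured 4.30, 4.78 and 20.6 CPM in SPN and 0, 0 and 0 CPM in LPN. Its SPN mean was at least 115.6-fold higher than the LPN floor of 3 reads over the group, and SPN C was far above the other sham libraries. Aspa, aspartoacylase, was the counterpart with no SPN read and 5.40, 4.34 and 13.2 CPM in LPN, at least 93.3-fold above the SPN floor. Cd200r3, Mup3 and Ebf1 had reads, among the SPN and LPN libraries, in SPN B and SPN C, C1rl in LPN A and Slc22a4 in LPN B and LPN C, so that libraries of 1 group differed among themselves in these genes.

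The called genes differed in transcript structure, which the comparison did not use. By the coding transcript with the longest coding sequence in GENCODE M21, the 3′UTR had a median of 604 bases among genes called higher, 1275 among genes called lower and 914 among all tested genes. Values were at hand for 82.2%, 94.3% and 86.7% of these sets. Coding length was 1138, 1545 and 1392 bases, and transcript GC content 45.6%, 50.2% and 49.7%. From the shortest to the longest quartile of 3′UTRs, the share called higher went from 4.78% to 1.84% and the share called lower from 4.15% to 8.84%, and the median log2 change from 0.04 to -0.43. From the lowest to the highest quartile of GC content, the share called higher went from 6.67% to 0.953%, the share called lower from 6.02% to 7.33% and the median change from -0.00 to -0.44. The GC difference in median change, -0.44, was -0.24 without LPN B and -0.66 without LPN C. Within genes of 20 to 100 CPM the 3′UTR medians were 604 bases for higher and 1366 for lower calls, and within 100 to 1000 CPM 637 and 1159. The difference between the longest and the shortest 3′UTR quartile was -0.01, 0.26 and 0.37 in SPN A, B and C and -0.25, -0.29 and -0.14 in LPN A, B and C, with no overlap. For GC content the groups overlapped, at 0.03, 0.22 and 0.44 in SPN and -0.19, -0.68 and 0.17 in LPN.

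**Figure D5:**
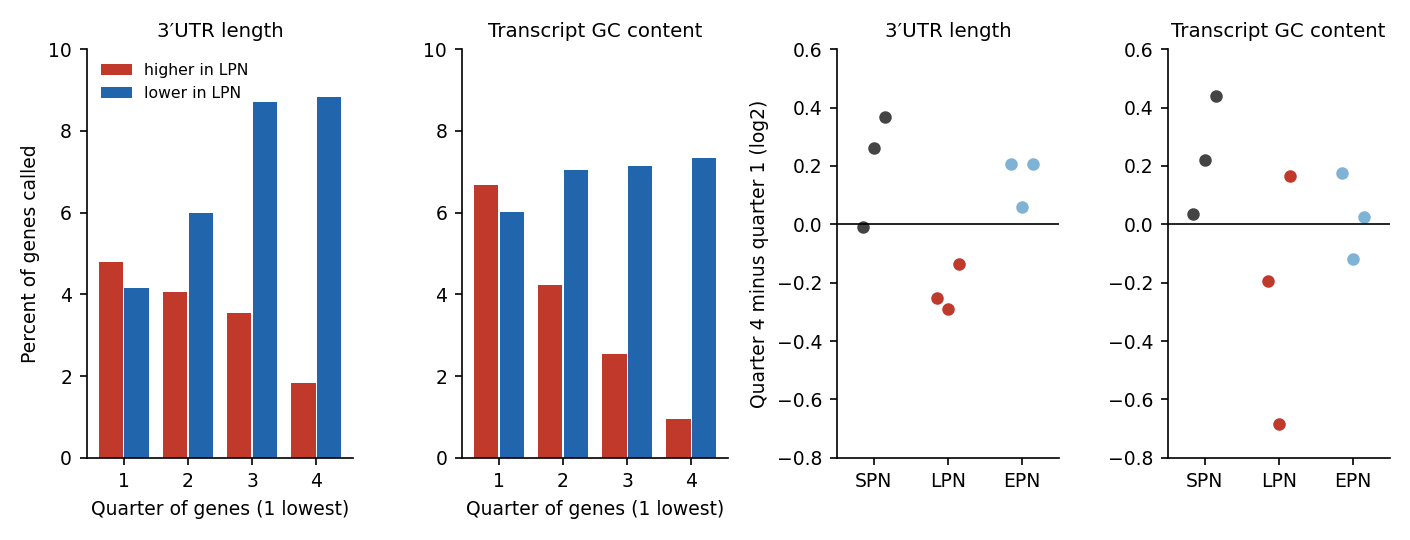
Left pair: percent of genes called higher (red) or lower (blue) in LPN by quartile of 3′UTR length and of transcript GC content. Right pair: for each library (points; A, B and C from the left), the median deviation of quartile 4 minus that of quartile 1 on the log2 scale; LPN lies under SPN and EPN for 3′UTR length and overlaps them for GC content.

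The fit was repeated after the trend with both was taken out of each library, over the 11951 genes with both values. This left 1095 calls, 597 higher (5.0%) and 498 lower (4.17%), against 496 higher (4.15%) and 934 lower (7.82%) in the same genes with the trend left in. The lower calls of the receptor tyrosine kinase, Wnt and Rab groups then numbered 11 of 100, 5 of 52 and 7 of 55. Their higher calls in the same fit numbered 3, 0 and 6, so the split of the Rab group was nearly even. Those of the TGF-beta, PI3K and mTOR, chromatin remodelling and deubiquitinase lists numbered 2 of 39, 2 of 73, 2 of 67 and 5 of 77, near or under the 4.17% of all genes except for the last. Relative medians of the signalling lists stayed under that of all genes, at -0.43 for receptor tyrosine kinases, -0.42 for Wnt and -0.55 for TGF-beta. Higher calls of mitochondrial import rose to 9 of 46, those of N-glycosylation to 10 of 65, and those of tRNA genes were 6 of 71, of lysosome genes 8 of 53 and of the Zfp stem 31 of 298, beside 5.0% of all genes. Slc25a17, Castor1, Zc3h8, Lage3, Cpsf3, E2f5, Spry4, Pnrc1, Lef1, Arhgap42, Bcl7c and Asb8 were called in this fit too, as were 158 of the 217 genes singled out by rule that had both values. Spin1 and Foxo3 were not (adjusted p = 0.12 and 0.067).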

How the data were processed

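The authors deposited CPM for 19359 genes in 9 libraries. Per the labels' protocols, whole embryos went into Smart-seq2 v4 cDNA synthesis and Nextera XT preparation, with 150-bp reads from both ends. The tools named per the submitters' processing notes are HISAT2 2.2.1, Trim Galore 0.6.7, edgeR and R 3.3.3, with the GRCm39 assembly; the read counter and annotation are not given in the sources used here. All deposited CPM values (100%) were whole multiples of 1 read within 0.01, which gave back the reads and library totals.

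Genes that reached 1 CPM in 3 or more of the 6 SPN and LPN libraries were tested on log2(CPM + 1) in limma 3.58.1 (R 4.3.3; trended variance prior of 24.6 degrees of freedom beside 6 residual ones), with 3 group means over all 9 libraries. Tests were two-sided, with Benjamini-Hochberg adjustment over 13782 genes. Values are as deposited. Fold changes on this scale understate those of low genes. Each ± after a CPM mean is the SD of 3 libraries, and each ± after a log2 change is its SE. Limits from a count of 0 use 3 reads and, like all intervals from reads without molecular identifiers, cover counting error only.

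Alternatives were a fit of the 6 libraries, median-of-ratios and quantile scaling, a pseudocount of 0.1, no filter, a mean of at least 5 CPM, edgeR 4.0.16 and DESeq2 1.42.0 on recovered reads, the library letter as a block, array quality weights, and each SPN and LPN library left out. Removal of the GC and 3′UTR length trend (natural splines of 4 terms each, per library) was added after seeing the data. The script was tested on simulated data.

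Members and lists were chosen with earlier results of these data known. Genes were named by rule: called, groups not overlapping, and no predicted or clone name; by largest change in 3 bands of level (6 each way), smallest adjusted p (10), largest difference of mean CPM (8), no read in 1 group (5), and up to 4 called members of a list or symbol stem each way. List members printed without values lie outside that rule. Lists were described by counts and medians, without a test. Some genes and 1 list are not reported here.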

Additional observations from a re-analysis of the deposited data

Results flagged for a closer look

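For 32 of the 231 named genes LPN also differed from EPN, by the contrast of the 2 groups in the same limma fit (adjusted p under 0.05 over all tested genes). The 231 were chosen for their difference between LPN and SPN, and this contrast uses the same LPN libraries, so the count of 32 cannot be set against the share of all genes. Values are log2 LPN minus EPN. Genes higher in LPN than in EPN were Apon (2.82), Rab29 (2.65), Cops3 (1.78), Rpp38 (1.65), Kat8 (1.5), Lage3 (1.47), Slc25a17 (1.19), Dnajc15 (1.14), Polr1e (1.04) and Cul3 (0.997). Cops3, a subunit of the COP9 signalosome, measured 36.6, 24.5 and 37.4 CPM in SPN and 87.2, 98.9 and 60.7 CPM in LPN, with EPN at 21.8, 24.9 and 21.8 CPM. The histone acetyltransferase Kat8 measured 31.8, 50.4 and 27.4 CPM in SPN and 78.7, 71.1 and 80.3 CPM in LPN, with EPN at 21.9, 27 and 31.3 CPM. In Cul3 and Polr1e, too, the EPN libraries lay near SPN, with 408, 707 and 536 CPM for Cul3.

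Lower in LPN than in EPN were the growth factor Vegfa (-2.98), the syndecan Sdc4 (-2.71), the zinc finger gene Zfp800 (-2.40), S100a11 (-2.39), Bcar3 (-1.79), the centriole gene Cep135 (-1.76), Eif4e1b (-1.55), Zbed3 (-1.53), Arhgap42 (-1.51), Insig1 (-1.47), Lef1 (-1.45) and Dpysl3 (-1.43). The others were Pnrc1 (-1.29), Bcl7c (-1.29), Pkd2l2 (-1.28), Parp12 (-1.26), Rab14 (-1.22), Spry4 (-1.18), Tiparp (-1.14), Usp53 (-1.12), Bcl2l10 (-1.11) and Mthfd2 (-1.06). Insig1, which holds back cholesterol synthesis, had 61.2, 51.3 and 69.7 CPM in SPN and 34.5, 20.6 and 20 CPM in LPN, with EPN at 87.7, 54.8 and 68.2 CPM. Zbed3 had 4083, 1643 and 2907 CPM in SPN and 1058, 523 and 1322 CPM in LPN, with EPN at 3578, 1782 and 2756 CPM, so that its EPN libraries lay in the range of SPN. Sdc4 and S100a11 had no read in LPN. Vegfa reached 1 CPM in LPN A alone of the LPN libraries, and Apon in SPN C alone of the SPN libraries. The values of these genes are a description.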

How the results depend on the processing

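The 1394 calls (517 higher, 877 lower) became 772 (273, 499) with only the 6 libraries, 558 (188, 370) with no filter, 568 (234, 334) with edgeR, 1916 (961, 955) with DESeq2 and 2831 (1016, 1815) with array quality weights. Median-of-ratios scaling gave 578 lower and removal of the GC and 3′UTR length trend 498 lower. Leaving out 1 library gave 82 to 2794 calls, 35 to 1010 of them higher and 47 to 1784 lower, with SPN C and SPN A at the ends. The other settings stayed within 1.5 times of the counts. Where fewer genes or libraries entered a fit, its size is part of the difference; otherwise the cause was not tested.

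All 231 named tested genes kept their direction in every alternative that gave a value. Of these, 196 lost the call without SPN C, 157 without LPN B, 118 without SPN B, 117 with edgeR and 35 with median-of-ratios scaling. Same-lettered SPN and LPN libraries correlated in their deviations by 0.06, 0.03 and 0.08 for A, B and C, so the letters were not taken as pairs; a replicate block gave 1755 calls (661 higher, 1094 lower) and kept all 231. Depth bears on the lowest genes: 3 reads in LPN B, the shallowest library, equal 0.394 CPM. Of 3965 tested genes under 5 CPM, 35 were called higher and 66 lower; what depth adds to that was not tested.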
